A study of Mus musculus with 8 samples.

Results

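The potassium and calcium channel genes described here are the 117 protein-coding genes on mouse autosomes whose symbol starts with Kcn (92 genes) or Cacn (25 genes), out of 21887 protein-coding genes on chromosomes 1 to 19, X and Y. The 3 genes of these names on the X chromosome, Cacna1f, Kcnd1 and Kcne1l, were left out by that rule. The members were chosen by name and not by any measured value, though earlier results of these data were known at the time. Whether a gene is expressed in these cells was not measured. The study read 5-hydroxymethylcytosine (5hmC), an oxidized form of methylated cytosine, in germinal center B cells from the spleen of C57BL/6 mice that were either TET2 Wild-Type (WT) or TET2 Knock-Out (KO). TET2 is an enzyme that makes 5hmC from 5-methylcytosine. DNA fragments carrying 5hmC were enriched by immunoprecipitation and sequenced (hMeDIP-seq) in 2 libraries of each genotype, numbered 2 and 3, and each had an input library that was not analysed here. The labels used here do not say how the knockout was made, the age or sex of the mice, or whether the libraries of a genotype came from separate mice, so a p-value here reflects no more than how far these 4 libraries vary, a variation that could be technical.

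Potassium channels let potassium leave a cell and keep its membrane voltage negative, and that voltage is the force that draws calcium in. In lymphocytes, calcium entry after engagement of the antigen receptor runs mainly through store-operated channels, while potassium channels sustain the driving force. Voltage-gated calcium channels are best known from nerve and muscle, where a pore-forming alpha1 subunit is carried to the membrane and tuned by alpha2delta, beta and gamma subunits. 5hmC is commonly found within gene bodies and at enhancers and is scarce at unmethylated CG-rich gene starts.

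Each deposited peak is a stretch of genome enriched in one library. The gene window was the annotated span plus 2 kb on each side, and covered bases are the bases of a window that lie under peaks. Values of the 4 libraries are given throughout in the order KO replicate 2, KO replicate 3, WT replicate 2, WT replicate 3. There were 280413, 279546, 270542 and 300950 peaks, which covered 137, 110.6, 124.8 and 139.3 Mb. KO replicate 3 stood apart, with the fewest covered bases and the lowest median fold enrichment (4.38, against 4.89 to 5.51 in the other libraries). The window of Tet2 itself held 3213, 2444, 3191 and 2810 covered bases, which does not check the genotype labels, since peaks show no deletion or RNA level. The germinal center B cell markers had a median of 233.1 covered bases per kb of window, against 63.9 for T cell, 54.3 for myeloid and 24.0 for erythroid markers. The 14 germinal center B cell genes ranged from 104.7 to 397.2, the 10 T cell genes from 0 (Cd8a) to 129.3 (Cd3g), the 8 myeloid genes from 0 (Lyz2) to 149.4 (Itgam) and the 5 erythroid genes from 0 (Epor) to 255.6 (Hbb-bt), so the lists overlap.

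The gene starts that show the range of the family are printed here, as the 250 bases before a RefSeq-listed start (build GRCm38.p6), read in the direction of transcription with every CG in capitals. CG, the pair of bases at which most methylation sits, reads the same on both strands and occurs in 93.7% of the 20085 such stretches of all autosomal genes in the table, with a median of 10 per stretch. The 121 stretches of the 87 matched channel genes had a median of 8. The first pair contrasts 2 lymphocyte potassium channels, Kcna3 (plus strand, chr3:107035912-107036161, 31 CG) and Kcnn4 (plus strand, chr7:24370013-24370262, 6 CG), whose starts carried no peak in any library.
Kcna3: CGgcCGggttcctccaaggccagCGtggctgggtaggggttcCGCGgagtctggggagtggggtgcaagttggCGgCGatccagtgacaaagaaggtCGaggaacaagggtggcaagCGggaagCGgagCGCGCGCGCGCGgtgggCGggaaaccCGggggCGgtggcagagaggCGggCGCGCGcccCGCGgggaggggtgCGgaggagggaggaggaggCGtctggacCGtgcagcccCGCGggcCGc
Kcnn4: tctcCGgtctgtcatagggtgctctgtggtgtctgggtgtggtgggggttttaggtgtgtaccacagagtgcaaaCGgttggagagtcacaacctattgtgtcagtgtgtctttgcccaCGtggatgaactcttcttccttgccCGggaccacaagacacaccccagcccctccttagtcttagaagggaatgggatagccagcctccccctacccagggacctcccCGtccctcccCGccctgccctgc
The next set had a peak in every library. It holds the 2 covered starts of the calcium channel subunit gene Cacnb3 (plus strand, chr15:98632078-98632327 with 2 CG and chr15:98634517-98634766 with 23 CG), that of Cacng7 (plus strand, chr7:3332575-3332824, 9 CG), that of Kcnj10 (plus strand, chr1:172340960-172341209, 17 CG), and the covered start of Kcnip3 (minus strand, chr2:127521393-127521642, 2 CG).
Cacnb3 first start: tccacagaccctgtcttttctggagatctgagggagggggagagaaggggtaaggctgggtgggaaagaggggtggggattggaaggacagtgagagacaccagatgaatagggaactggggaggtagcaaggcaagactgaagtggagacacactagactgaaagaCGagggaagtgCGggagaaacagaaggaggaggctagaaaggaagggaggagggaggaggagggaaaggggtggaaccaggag
Cacnb3 second start: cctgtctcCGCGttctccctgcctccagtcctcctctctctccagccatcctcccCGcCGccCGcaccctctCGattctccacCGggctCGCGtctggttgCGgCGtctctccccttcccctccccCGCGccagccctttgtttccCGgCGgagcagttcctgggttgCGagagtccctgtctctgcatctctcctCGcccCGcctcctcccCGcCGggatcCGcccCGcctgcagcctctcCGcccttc
Cacng7: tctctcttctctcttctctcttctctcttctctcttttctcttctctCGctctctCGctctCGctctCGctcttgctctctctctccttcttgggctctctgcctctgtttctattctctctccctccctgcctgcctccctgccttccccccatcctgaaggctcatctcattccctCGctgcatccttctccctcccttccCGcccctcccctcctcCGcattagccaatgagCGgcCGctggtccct
Kcnj10: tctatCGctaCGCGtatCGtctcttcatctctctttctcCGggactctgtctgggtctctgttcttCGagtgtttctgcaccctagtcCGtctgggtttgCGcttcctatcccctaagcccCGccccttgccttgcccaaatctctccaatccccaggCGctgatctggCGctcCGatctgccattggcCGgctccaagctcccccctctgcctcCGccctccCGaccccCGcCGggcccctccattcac
Kcnip3: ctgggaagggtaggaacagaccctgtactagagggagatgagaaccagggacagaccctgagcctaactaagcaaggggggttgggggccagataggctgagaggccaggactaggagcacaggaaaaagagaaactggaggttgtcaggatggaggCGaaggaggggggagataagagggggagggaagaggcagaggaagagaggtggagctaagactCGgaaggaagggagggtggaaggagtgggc
The last pair differed between libraries. Kcnk7 (plus strand, chr19:5704221-5704470, 9 CG) had a peak in the WT libraries alone, and Kcnmb3 (minus strand, chr3:32491970-32492219, 6 CG) in every library except KO replicate 3.
Kcnk7: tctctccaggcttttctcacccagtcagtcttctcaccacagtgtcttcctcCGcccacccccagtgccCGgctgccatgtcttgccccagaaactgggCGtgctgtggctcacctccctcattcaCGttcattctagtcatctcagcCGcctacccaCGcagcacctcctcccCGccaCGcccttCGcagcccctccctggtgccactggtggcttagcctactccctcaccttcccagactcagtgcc
Kcnmb3: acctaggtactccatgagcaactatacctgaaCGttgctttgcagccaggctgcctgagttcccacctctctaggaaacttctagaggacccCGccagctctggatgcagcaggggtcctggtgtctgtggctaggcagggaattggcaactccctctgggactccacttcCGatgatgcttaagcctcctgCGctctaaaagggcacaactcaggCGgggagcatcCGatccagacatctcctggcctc

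Most channel genes carried 5hmC peaks, as did most genes. Of the 117 genes, 110 had a peak in at least 1 library (94%, against 84.9% of all autosomal protein-coding genes) and 105 in every library (89.7%, against 74.1%). The median channel gene had 60.8 covered bases per kb of window, against 40.9 for all 20665 autosomal protein-coding genes, and its window was longer (46.5 kb against 21.5 kb). Across the channel genes the number of covered bases followed the window length (Spearman's rho 0.911 over 117 genes, a description only, since a longer window has more room for peaks). The peaks themselves were ordinary in strength. Their median fold enrichment, the authors' own value per peak, was 5.18, 4.46, 5.69 and 5.03, against 5.10, 4.39, 5.57 and 4.89 for all autosomal peaks. Channel windows overlapped the window of another gene in 41 cases, where a peak cannot be assigned to one gene.

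The voltage-gated potassium channel alpha subunits, the pore-forming proteins that open when the membrane depolarizes, were the largest subfamily, with 39 genes and a median of 40.1 covered bases per kb. Kcnq5, an M-current channel gene, had the most covered bases of them, with 26623, 23573, 24141 and 26799 in a window of 568.3 kb, or 44.5 per kb. Kcna3, the main voltage-gated potassium channel of lymphocytes, had no peak in any of the 4 libraries in its window of 5.97 kb. Its neighbours in the same gene cluster on chromosome 3 did carry peaks, Kcna2 with 898, 1152, 1152 and 1154 covered bases and Kcna10 with 770, 630, 739 and 724.

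The 8 calcium- and sodium-activated potassium channel genes had the lowest subfamily median, 35.8 per kb, and also held one of the densest genes. Kcnn4 encodes the intermediate-conductance calcium-activated channel that lymphocytes raise on activation. It had 5363, 4141, 6391 and 5560 covered bases in 19.39 kb, or 276.7 per kb, and no other gene window overlaps it. WT replicate 2 was highest and KO replicate 3 lowest, and after scaling to equal totals both WT libraries (6552 and 5105) lay above both KO libraries (5008 and 4789). The other 7 genes of the group lay between 25.8 and 60.8 per kb. Kcnma1, the large-conductance channel, had 27496, 23019, 24599 and 28813 covered bases over 716.8 kb, 36.25 per kb, and its groups overlapped.

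Inward rectifiers, which set the resting potential, had a median of 75.9 per kb over 15 genes. Kcnj6, a G protein-gated channel, led in bases (24739, 21382, 22420 and 24960), and Kcnj14 in density with 134.0 per kb. Two-pore domain channels, which pass background potassium current, had a median of 70.3 per kb over 14 genes, from Kcnk4 at 25.8 to Kcnk15 at 160.8. Kcnk2 had the most bases of that group, with 14029, 12408, 13219 and 14895. Kcnk5, an acid-sensitive member, had 4479, 3761, 3640 and 4191 covered bases, with groups that overlapped before scaling. After scaling to equal totals both KO libraries lay above both WT libraries (log2 difference, KO minus WT, 0.16, SE 0.11). Kcnk6 had 1226, 530, 1446 and 1122, and the spread between the 2 KO libraries was wider than the gap between the genotype means. Kcnk13 had 7232, 5566, 7559 and 7998, with both WT libraries above both KO libraries.

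Auxiliary potassium channel subunits, which have no pore of their own, had a median of 56.3 per kb over 16 genes. Kcnip4, which encodes a calcium-binding partner of A-type channels, had the longest window of all (1140 kb) and the most covered bases (48433, 39528, 44251 and 48653). Kcne2, a small single-pass subunit, was densest with 152.5 per kb. Kcnab2, a beta subunit found in lymphocytes, had 6320, 5639, 6503 and 7354 covered bases, 71.1 per kb, the WT libraries above the KO libraries.

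The 25 calcium channel genes had a median of 68.3 covered bases per kb, against 51.9 for the 92 potassium channel genes. The 9 alpha1 subunit genes had a median of 65.2 per kb, led in bases by Cacna1e (34480, 25912, 31696 and 34075) and in density by Cacna1i with 145.8 per kb. The L-type genes Cacna1c (24559, 19546, 23707 and 26487) and Cacna1d (31813, 26443, 30208 and 30233) had 38.4 and 65.2 per kb, with groups that overlapped before scaling. After scaling, both WT libraries lay above both KO libraries for Cacna1c, and the groups of Cacna1d still overlapped. Among the 8 alpha2delta and beta genes, median 51.6 per kb, Cacna2d3 had the most bases (29243, 25501, 27422 and 28842). Beta subunits carry the pore to the membrane. Cacnb1 was the densest of the group at 129.5 per kb (3684, 2655, 3183 and 3700), Cacnb4 had 19961, 16695, 18791 and 21682 bases, and Cacnb3 had 1032, 1279, 1026 and 1366. The 8 gamma subunit genes, several of which serve glutamate receptors in the brain, had the highest subfamily median, 79.9 per kb, with Cacng2 first in bases (13524, 12122, 12098 and 14367) and Cacng7 in density at 157.0 per kb. In 7 of the 8 subfamilies the lowest of the 4 library medians was that of KO replicate 3.

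**Figure D1:**
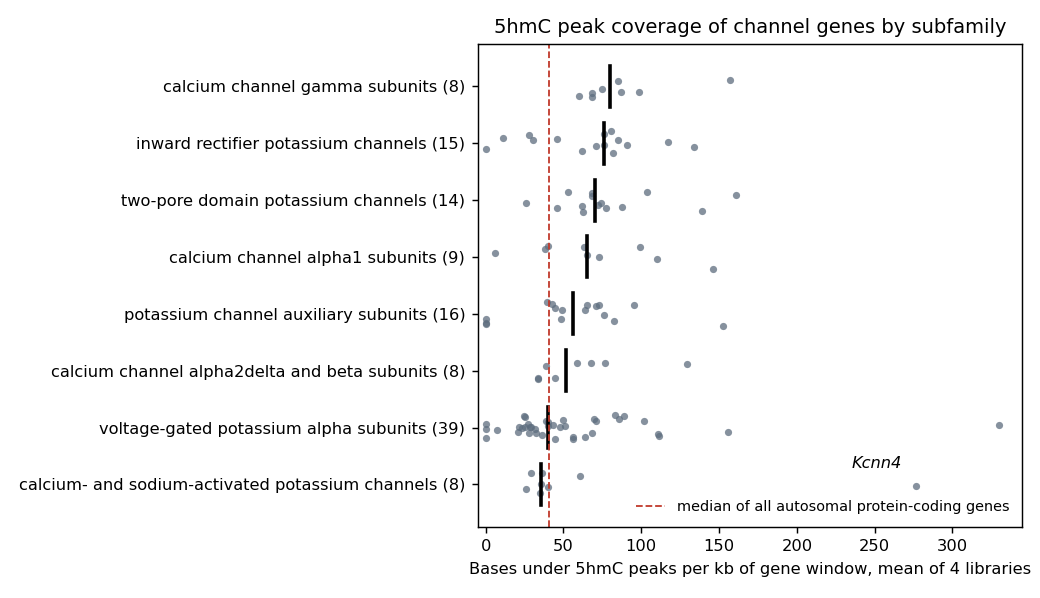
Bases under peaks per kb of gene window (x axis, mean of the 4 libraries) for the 117 channel genes, 1 point per gene, by subfamily with the number of genes in brackets; black bars are subfamily medians and the dashed line is the median of all autosomal protein-coding genes (40.9). Kcnn4 (276.7) lies far to the right of the other 7 genes of its subfamily, which end at 60.8.

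**Figure D2:**
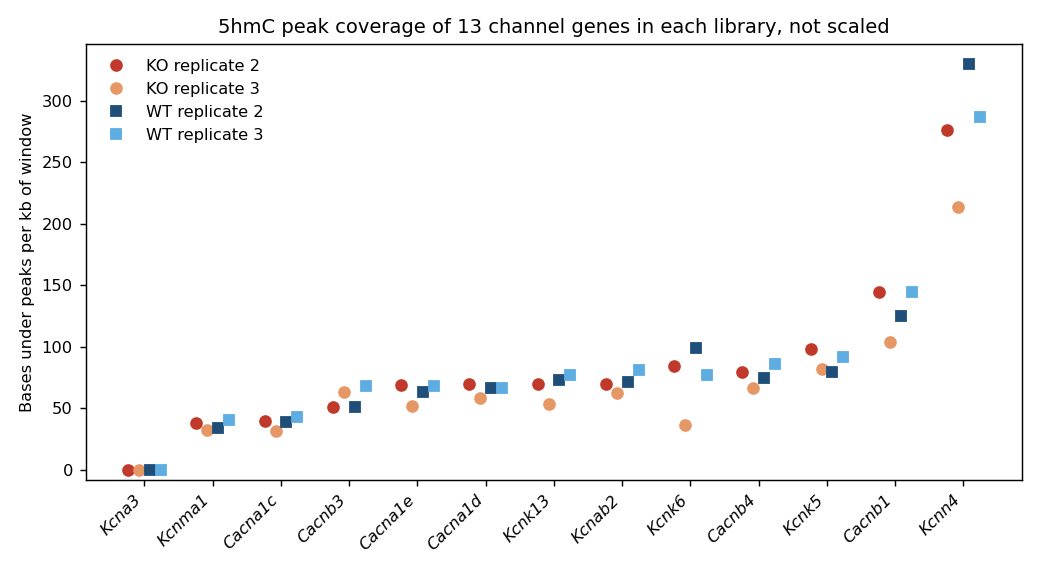
Bases under peaks per kb of window (y axis, not scaled between libraries) in each of the 4 libraries for 13 channel genes named for lymphocytes, ordered by their mean. Kcna3 is at 0 in every library and Kcnn4 is highest in every library, and KO replicate 3 is the lowest library for most genes, as it is for covered bases genome-wide.

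The genes without peaks were short. The 7 channel genes without a peak were Kcna3, Kcna5, Kcnf1, Kcnj13, Kcne3, Kcne4 and Kcnrg, all with windows under 15 kb. They made up 7 of the 24 channel genes of that size (29.2%), and 33.7% of all autosomal genes of that size had no peak. The longest of them were Kcnj13, a kidney and retinal pigment epithelium channel (14.15 kb), Kcne3 (12.36 kb) and Kcnrg (9.38 kb). Another 5 genes had peaks in some libraries only. Cacna1h, a T-type calcium channel gene, had 360, 278, 0 and 977 covered bases, Kcnj8 had 455, 320, 413 and 0, Kcnj2 had 335, 0, 0 and 313, and Kcns2 had 0, 305, 0 and 0, none of which separates the genotypes. Kcnk7 had 0 and 0 in KO and 317 and 1061 in WT. A peak list holds only what passed the caller's threshold, so a 0 means that no peak was listed.

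At gene starts, a larger share of channel genes than of all genes had a peak. A peak touched the window from 250 bases before to 50 after a listed start in every library for 9 of the 87 channel genes with a listed start (10.3%, 95% Wilson interval 5.54 to 18.5, counting error only), against 4.26% of 16457 autosomal genes. These were the calcium channel genes Cacnb3, Cacng5 and Cacng7 and the potassium channel genes Kcnc2, Kcnd3, Kcnip1, Kcnip3, Kcnj10 and Kcnk2. The stretches printed above show that such starts can hold few CG (2 before the first Cacnb3 start) or many (23 before the second). Cacng7 and the first Cacnb3 start were covered over all 300 bases in each library. The second Cacnb3 start was covered over 300, 254, 299 and 289 bases and Kcnj10 over 294, 238, 271 and 300. The counts rest on few genes, and fell to 6 (6.9%, against 1.64% of all genes) with peaks of at least 5-fold enrichment and to 5 (5.75%, against 1.11%) when the summit had to lie in the window.

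The start of Kcnk7, a two-pore subunit gene, was covered over 0, 0, 261 and 300 bases, the only channel start covered in each WT library and in no KO library. Its window overlaps those of Ehbp1l1 and Map3k11. That of Kcnmb3, which encodes a beta subunit of the large-conductance channel, was covered over 191, 0, 290 and 262 bases. Both genes were chosen after their values were seen. Around the start, 71 channel genes and 14811 autosomal genes whose listed start lies within 1 kb of the end of the span could be compared. In the first 250 bases after the start, 4.90%, 3.38%, 4.55% and 5.57% of bases lay under peaks in channel genes, against 2.95%, 1.93%, 2.59% and 3.03% in all genes. From 500 to 750 bases after it the values were 11.96%, 11.01%, 11.07% and 13.24%, against 5.10%, 3.96%, 4.72% and 5.15%. The WT and KO libraries overlapped in both stretches, but not before the start. From 250 bases before it to the start, channel genes had 3.47%, 4.24%, 5.88% and 5.66%, and from 500 to 250 before it 3.88%, 4.85%, 6.78% and 6.43%, both WT libraries above both KO libraries. Of the 40 bins within 5 kb, both WT libraries lay above both KO libraries in 8 and below them in 3 in channel genes, against 0 and 0 in all genes. That 0 and 0 is no background rate for the 8 and 3. In the values given for all genes the libraries stood in the order of their total covered bases. A mean over 71 genes also varies more from bin to bin than one over 14811. Neighbouring bins share peaks, and the difference was not tested.

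**Figure D3:**
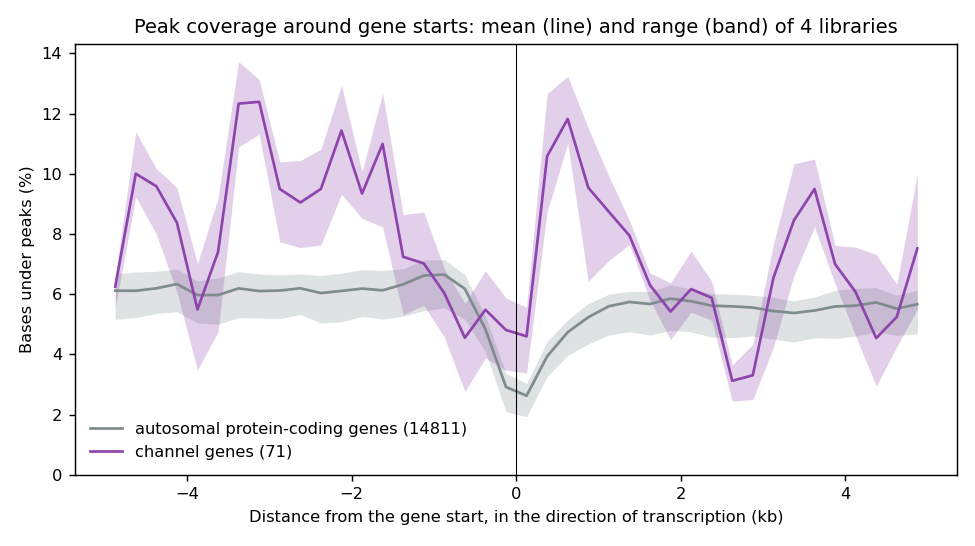
Percent of bases under peaks (y axis) in bins of 250 bases by distance from the gene start (x axis, kb, positive values downstream) for 71 channel genes and 14811 autosomal protein-coding genes; lines are means and bands the range of the 4 libraries. In all genes coverage is lowest in the first bin after the start; in channel genes it is low there too but lowest between 2500 and 3000 bases downstream, and it is above that of all genes from 250 to 1500 bases downstream; with 71 genes, single genes move the curve.

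Between genotypes, no channel gene differed in covered bases beyond the adjusted threshold. Covered bases were scaled to equal totals, and log2(covered bases + 200) was compared with limma across 13998 genes, of which 101 were channel genes with a mean of at least 500 bases; the difference is KO minus WT on that log2 scale, which understates the change of genes with few bases. With Benjamini-Hochberg adjustment, 0 of 101 channel genes and 0 of 13998 genes (0%) passed 0.05. At an unadjusted p under 0.05 there were 3 channel genes (2.97%) and 591 genes in all (4.22%). The median log2 difference was -0.004 for channel genes and -0.009 for all genes, and 51 of the 101 were negative. Without scaling the median was -0.088 for channel genes and -0.098 for all genes and 82 of the 101 were negative, so the direction of the family as a whole follows the library totals.

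The 3 genes at an unadjusted p under 0.05 were all potassium channel genes. Kcnn1, a small-conductance calcium-activated channel gene, had scaled values of 809, 834, 1204 and 1377 covered bases. Both KO libraries lay below both WT libraries, with a log2 difference of -0.54 (SE 0.18, 2 libraries against 2). Its window overlaps those of Arrdc2 and Ccdc124. Kcna7, a muscle-type voltage-gated channel gene, had 770, 925, 1241 and 1229, again with no overlap (log2 difference -0.46, SE 0.18). On the gene span alone Kcna7 fell below the filter on covered bases and was not refitted. Its difference therefore holds for the window with flanks and was not tested within the span. Kcnh5, an ether-a-go-go channel gene, went the other way with 17650, 16490, 15100 and 14410 scaled bases (log2 difference 0.21, SE 0.07), and before scaling KO replicate 3 was the lowest of the 4. The limma adjusted p was 0.9999 for each of these genes and for those that follow.

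The next smallest p-values below 0 belonged to Kcnj3 (-0.23), Kcns1 (-0.76) and Kcnk13 (-0.19), and those above 0 to Kcnj16 (0.28), Cacng5 (0.23), Kcng3 (0.32) and Kcnc2 (0.23), as log2 differences. With 1 library left out, 7 of the 14 genes in the plot of coverage differences moved by over 1.5 times, among them Kcnc2 (0.09 to 0.37), Cacng5 (0.12 to 0.34) and Kcng3 (0.18 to 0.45). Kcns1, a silent subunit that tunes other voltage-gated channels, had 350, 672, 877 and 1249 covered bases, with both KO libraries below both WT libraries and a wide spread within each genotype, and its difference was -0.31 without KO replicate 2 and -1.22 without KO replicate 3. Kcnj16, an inward rectifier of kidney and glia, had 5239, 4734, 4242 and 3898 scaled bases, both KO libraries above both WT libraries. Kcnmb3 had the largest difference of the tested genes (-0.85, SE 0.44), and KO replicate 3 alone was low, with 3903, 1158, 4679 and 3988 covered bases. Without KO replicate 3 the difference was -0.19 (SE 0.21). For Kcnn4 the difference was -0.23 (SE 0.15), and -0.06 without WT replicate 2 or -0.41 without WT replicate 3. It was -0.09 (SE 0.06) for Cacna1c and 0.04 (SE 0.07) for Cacna1d.

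Both KO libraries lay below both WT libraries in 19 of the 101 genes (18.8%), against 16.9% of 13550 autosomal genes, and above them in 21 (20.8%), against 13.9%. Pairs of libraries of one genotype differed about as much as pairs across genotypes. The median absolute log2 difference over the channel genes was 0.11 between the KO libraries and 0.0944 between the WT libraries, and from 0.0863 to 0.131 between a KO and a WT library. The channel windows held 0.669%, 0.682%, 0.676% and 0.676% of all autosomal covered bases. The number of peak summits per gene gave 0 calls among 98 channel genes and among 11773 genes (0%) with limma at an adjusted p of 0.05, and at an unadjusted p under 0.05 it gave 2 channel genes, Kcnn1 (2, 2, 3 and 4 summits) and Kcna7 (2, 2, 3 and 3), and 571 genes in all. That count of 0 did not hold under other settings. Over all genes it was 444 without scaling and from 0 to 267 with 1 library left out, and over channel genes 3 and 0 to 3.

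**Figure D4:**
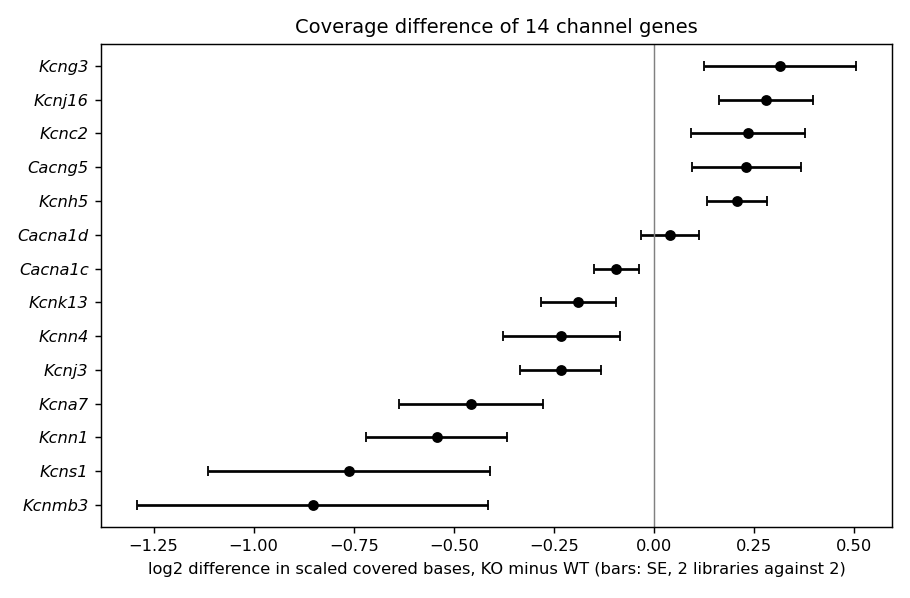
Difference in covered bases, KO minus WT on the log2 scale (x axis), for 14 channel genes: the 5 with the smallest limma p in each direction, and Kcnn4, Kcnmb3, Cacna1c and Cacna1d; points are estimates and bars the standard error from 2 libraries against 2. No gene passed the adjusted threshold, and the widest bars belong to Kcnmb3 (SE 0.44) and Kcns1 (SE 0.35).

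Merged over the 4 lists, the channel windows held 2285 peak regions. Of these, 1400 (61.3%) had a peak in every library, against 58.1% of 145295 regions in all autosomal gene windows. Peaks in both WT libraries and in no KO library were found in 40 regions (1.75%, against 2.25%), and peaks in both KO libraries and in no WT library in 23 (1.01%, against 1.25%). For both genotypes the share in channel genes was close to that of genes at large.

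The authors' deposited table of regions higher in WT cells, called WT-higher here, placed 182 regions in channel windows, in 54 of the 110 channel genes with a peak (49.1%), against 29.3% of 17548 autosomal genes with a peak. With a deposited score of at least 5 there were 44 genes (40%, against 16.4%). In the table of KO-higher regions that the authors deposited, the regions touched 0 of the 110 genes, against 18 of the 17548 (0.103%). Neither the unit of the score nor the caller or the compared libraries are stated in the sources used here, and the tables hold no replicate values, so the counts have no error of their own.

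The share of genes followed how much peak coverage a gene had. Of genes with a mean of 500 or more and under 2000 covered bases, 6.9% of 29 channel genes had a WT-higher region in the authors' deposited table, against 16.5% of all autosomal genes. From 2000 and under 5000 it was 54.2% of 24, against 42.3%, and from 5000 and under 10000 it was 55% of 20, against 72%. At 10000 or more it was all 28 channel genes (100%), against 94.3%. Counted per merged peak region, 175 of 2285 channel regions (7.66%, 95% Wilson interval 6.64 to 8.82, counting error only) overlapped a WT-higher region of the authors' deposited table, against 7.40% of all autosomal gene regions, a share inside that interval. With a score of at least 5 it was 84 regions (3.68%, against 3.19%), and among the 1400 regions with a peak in every library 144 (10.3%, against 9.76%).

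**Figure D5:**
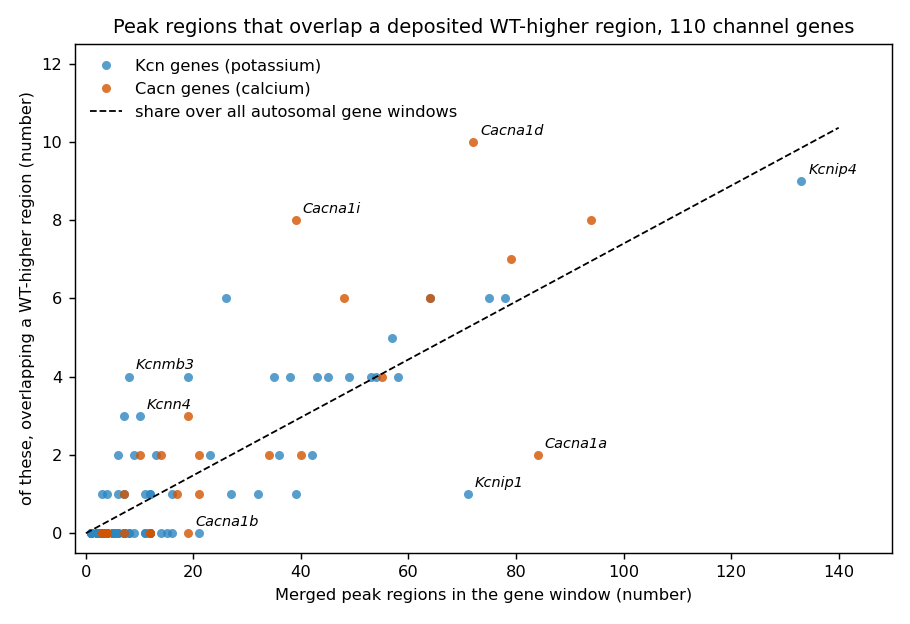
Merged peak regions in each gene window (x axis, number) and how many of them overlap a deposited WT-higher region (y axis, number) for the 110 channel genes with a peak, 1 point per gene; the dashed line is the share over all autosomal gene windows (7.40%). Most genes lie near the line, Cacna1d, Cacna1i and Kcnmb3 above it, and Cacna1a, Cacna1b and Kcnip1 below it.

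The number of WT-higher regions in a gene followed its number of merged peak regions (Spearman's rho 0.785 over 110 channel genes with a peak). That value is a description only. In the authors' deposited table the 10 richest genes, picked by their number of WT-higher regions, held 76 of the 182 regions (41.8%). They included Cacna1d with 11, Kcnip4 with 10, Cacna1e with 9, Cacna1i with 8, Cacna2d3 and Kcnq5 with 7 each, and Cacna1c, Kcnh7 and Kcnma1 with 6 each. By subfamily, a WT-higher region was found in 7 of 9 alpha1 genes (39 regions), 7 of 8 alpha2delta and beta genes (25), 3 of 8 gamma genes (5), 15 of 39 voltage-gated potassium genes (51), 4 of 8 calcium- and sodium-activated genes (11), 4 of 15 inward rectifiers (11), 8 of 14 two-pore genes (15) and 6 of 16 auxiliary genes (25). These gene counts follow peak coverage. Per merged peak region the shares were, in the same order, 9.09%, 9.06%, 5.05%, 7.32%, 6.00%, 6.58%, 11.03% and 6.43%. Over all autosomal gene regions the share was 7.40%, which lay inside the Wilson interval of each subfamily. Other genes with many peak regions had few WT-higher regions. Cacna1a, the P/Q-type pore of neurons, had 84 peak regions and 2 WT-higher regions, Kcnip1 had 71 and 1, and Cacna1b, the N-type pore, had 19 and 0 in a window of 163.3 kb.

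Most WT-higher regions of the authors' deposited table still had peaks in the KO libraries. Of the 182, 138 overlapped a peak in all 4 libraries, 19 in 3, 7 in 2, 10 in 1 and 8 in none. By library, 158, 139, 171 and 165 of them overlapped a peak. Peaks were missing most often in KO replicate 3. In all, 18 regions lacked a peak in KO replicate 3 alone, 1 lacked it in KO replicate 2 alone, and 5 had peaks in each WT library but none in KO. These peaks were strong, with a median rank by fold enrichment at the 81.5, 79.9, 80.6 and 82.3 percentile of their own list. In the 138 regions with 4 peaks the lowest percentile was that of KO replicate 3 in 74 and that of KO replicate 2 in 27, against 14 and 23 for the WT libraries, and both WT percentiles exceeded both KO percentiles in 39 (28.3%), the opposite in 6 (4.35%). Over the 8016 such regions of all autosomal gene windows the shares were 31.1% and 5.33%. All of them were deposited as higher in WT, so this order is partly fixed by how they were chosen. How far the weaker enrichment of KO replicate 3 sets these calls was not tested.

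The regions were short, with a median of 254 bases, and 181 of 182 lay in the gene span. For the 122 regions in genes with a usable start, the median distance from the outermost listed start was 120.8 kb, 2 lay within 5 kb and 0 within 1 kb. Coordinates are those of the authors' deposited table (GRCm38). The highest score, 10.7, belonged to chr3:32491763-32492129 in Kcnmb3, where the peak of KO replicate 2 had a fold enrichment of 3.59, the WT peaks had 6.21 and 3.94, and KO replicate 3 had no peak. This region overlaps the start of Kcnmb3 printed above. The count of 0 within 1 kb does not include it, since that count covers 122 of the 182 regions and the outermost listed start alone. It does not show that no WT-higher region lies at a channel gene start. The other 3 WT-higher regions of Kcnmb3 had no peak in KO replicate 3 either, and the gene's window overlaps that of Pik3ca.

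In Kcnn4, the region chr7:24381849-24382327 (score 5.58) had peaks of 3.21-fold and 3.15-fold in the WT libraries and none in KO, and chr7:24377141-24377526 (score 4.01) had peaks of 7.33, 8.59 and 7.17-fold in all libraries but KO replicate 3. Both lie downstream of the Kcnn4 start printed above, by about 11820 and 7070 bases. In Cacna1c, chr6:119044667-119044874 (score 6.05) had WT peaks of 4.45 and 3.47-fold and none in KO. Kcnn2 on chromosome 18 held another region of that kind.

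Other members of the highest scores kept peaks in all libraries. The Kcnb2 region with score 8.11 had folds of 6.21, 4.21, 8.18 and 6.39, that of Cacng5 (7.55) had 13.3, 9.14, 15.3 and 12.8, and the Cacna1c region chr6:118837684-118837933 (7.43) had 7.25, 4.21, 7.97 and 6.39. In each of these, KO replicate 3 was lowest and WT replicate 2 highest. Cacna1d, the richest gene, had 9 of its 11 regions with peaks in every library, among them chr14:30071307-30071593 (11.63, 4.91, 13.36 and 10.56-fold).

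Of the other genes in the pathway, a list of 40 calcium signalling genes (receptors, pumps, store sensors, calcineurin and its targets) had 131 WT-higher regions in 28 genes in the authors' deposited table. That is 70% of the list, against 29.3% of autosomal genes with a peak. The list's median window was longer (87.9 kb against 21.5 kb), and the share of genes follows peak coverage. Per merged peak region the share was 12.3% (95% Wilson interval 10.3 to 14.6). It was 7.66% for the channel genes and 7.40% over all autosomal gene regions, and these differences were not tested. Nfatc1, the calcineurin-driven transcription factor, had 18, Plcg2, the phospholipase behind the B cell receptor, 15, the calcium release channel gene Itpr2 13, Itpkb 10, Ryr2 and Ppp3ca 9 each, and Atp2b1, Camk2d and Ryr1 6 each. Among the store-operated genes of that list, the sensor gene Stim2 had 2 (in a window with 21 peak regions), Stim1 0 (32 peak regions), and the pore genes Orai1, Orai2 and Orai3 had 1, 1 and 0 (2, 8 and 1 peak regions). A list of 46 genes of other cation channel families (sodium, TRP, HCN, cyclic nucleotide-gated and ryanodine receptor genes) had 60 regions in 23 genes (50%, against 29.3%). WT-higher regions overlapped 7.47% of its peak regions, against 7.40% over all autosomal gene regions. The calcium signalling and cation channel lists share the genes that belong to both, and the lists were compared by their counts alone. With limma, 0 genes of either list passed an adjusted p of 0.05 for covered bases.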

How the data were processed

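5hmC peaks of 2 KO and 2 WT immunoprecipitated libraries of germinal center B cells were analysed, out of 8 libraries. The submitters' processing notes name the aligner BWA (0.7.12-r1039), the peak caller MACS2 (2.1.0.20151222) and the build GRCm38.p3, without settings. The authors deposited 1 peak list per library, with a fold enrichment (a ratio over local background), −log10 p-values and −log10 q-values for each peak. The authors also deposited a table of WT-higher and a table of KO-higher regions, with a score whose scale is not stated. Depth is unknown from the sources used, so the precision of a value was judged from the libraries' spread.

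Gene spans came from a RefSeq table (GRCm38.p6, 1 span per gene). Windows added 2 kb on each side. Bases under merged peaks were counted per window, scaled to equal totals and compared by limma (3.58.1, R 4.3.3, with trend and robust settings) after a log2 transform with a pseudocount of 200, over genes with a mean of at least 500, with Benjamini-Hochberg adjustment at 0.05. Summits were compared as log2(summits + 1) over genes with a mean of at least 2. Peaks of the 4 lists that touched were merged into regions, and 1 shared base counted as overlap. The fit of covered bases was checked on simulated data. The planted differences were 2 on the log2 scale in either direction, larger than that of any tested channel gene. That check therefore does not show whether smaller differences would be found. With 2 libraries against 2 an exact permutation test of 1 value cannot reach 0.05, so none was run.

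The members and the gene lists were chosen with earlier results of these data known. Genes named with values were 13 lymphocyte and calcium channel genes chosen by name, the gene with the most bases and the densest gene of each subfamily, the 5 with the smallest limma p in each direction, the 10 with the most WT-higher regions, the 3 longest without a peak, and the calcium signalling genes with the most WT-higher regions. Other names were chosen after their values were seen. Some results that this rule would name are not reported here. Alternatives were other pseudocounts, no scaling, no filter, the span alone, stronger or equally many peaks, a replicate block and leaving out each library.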

Additional observations from a re-analysis of the deposited data

How the results depend on the processing

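With limma, covered bases gave 0 calls over all genes and over channel genes under each of the 12 alternatives run, the leave-one-out fits included (0 to 0). Summits gave 0 calls over all genes as reported, 444 without scaling, 112 with the replicate number as a block, and from 0 to 267 with 1 library left out. The cause was not tested. The replicate numbers were not shown to pair the libraries, since the difference of the KO replicates and that of the WT replicates correlated with r = 0.09 over 13998 genes, and the block changed no call for covered bases. When 1 library was left out, the group with 1 library was assumed to vary like the other. The log2 ratio of the channel share of covered bases, KO over WT, was -0.0008, and between -0.0139 (without KO replicate 3) and 0.0123 (without KO replicate 2) with 1 library left out. WT-higher regions overlapped 3.68% of channel peak regions at a score of at least 5 (3.19% over all autosomal gene regions) and 10.3% of those with a peak in every library (9.76%), in place of 7.66% as reported (7.40%). Promoter peaks in every library were found in 5 channel genes by summit and 25 within 1 kb of a start (28.7%, against 19.4% of all genes), in place of 9. Kcna7 on the span alone, and Kcnn1 and Kcns1 with peaks of at least 5-fold, fell below the filter and were not refitted. Of the 165 refits of 14 named genes that remained, 160 kept the direction. The exceptions were Cacna1d (-0.06 without scaling, and from -0.04 without WT replicate 3 to 0.12 without WT replicate 2) and, with peaks of at least 5-fold, Kcng3 (-0.04), Kcnk13 (0.00) and Kcnn4 (0.13), where fewer peaks remained. The count of 160 overstates stability, since the 5 genes with the smallest p in each direction were picked from the same fit. Dropping the filter or adding the block left each estimate unchanged. Where the groups do not overlap, leaving out 1 library cannot turn the sign. The size moved more than the direction, by over 1.5 times in 7 of the 14 genes with 1 library left out. Under some alternative it moved that far in all 14, in Kcnj16 only just (from 0.2798 to 0.1855 without scaling). With peaks of at least 5-fold, Kcnj3 went from -0.23 to -1.38, Kcnc2 from 0.23 to 0.57 and Kcnh5 from 0.21 to 0.06, and with equally many peaks Kcnn1 went from -0.54 to -0.20.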
